A study of Homo sapiens with 12 samples.

Results

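The response of AGS cells to ESRRG overexpression was described across all genes that the arrays detected in this line. ESRRG OE samples were AGS cells transduced with a lentiviral vector carrying the full-length ESRRG cDNA, and control samples were AGS cells transduced with the control vector. AGS is an established human gastric adenocarcinoma line that grows as an adherent epithelial culture. The samples were chosen by their titles and comprised 3 ESRRG OE and 3 control samples of AGS cells, which are 6 of the 12 samples of the series. The remaining 6 samples are MKN45 cells given the same vectors. RNA was taken 3 days after transduction, according to the methods of the study. They name Dulbecco's modified essential medium or RPMI1640 for the lines and do not say which was used for AGS. Each sample was hybridized to 1 Illumina BeadChip, which reads transcripts with 47323 probes. No source tells if the 3 samples in each group were grown and transduced separately. A p-value here thus reflects the scatter of these 3 and 3 samples, and that scatter may be technical.

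A gene was tested where its probe had a detection p-value under 0.05 on at least 3 of the 6 AGS arrays. This left 10920 of 20046 genes, each represented by its brightest probe. Levels are given in log2 units of quantile-normalized intensity, and each log2 fold change is ESRRG OE minus control. A gene is called changed where the adjusted p-value of limma, with Benjamini-Hochberg adjustment over all genes tested, was under 0.05.

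Nuclear receptors are transcription factors, many of which respond to a hormone or a metabolite. ESRRG belongs to the estrogen-related receptor (ERR) family, orphan receptors with no established natural hormone, which bind an extended version of a single arm of the estrogen response element. In heart, kidney and the acid-secreting parietal cells of the stomach, ERR factors are known as activators of genes for mitochondrial oxidation. In liver cells ESRRG is known to respond to stress and to fasting.

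Both groups carried epithelial transcripts. All 6 stomach epithelial markers with a probe, among them KRT8, EPCAM and ELF3, were detected on every AGS array. All 5 endothelial markers and 5 of 7 fibroblast markers were undetected on all 6 arrays. Of 6 immune markers with a probe, 3 were undetected on all arrays (CD14, CD3E and PTPRC). The other 3 passed the test as higher, LCP1 by 0.75 log2 units (SE 0.09), CD68 by 0.55 (SE 0.13) and LYZ by 0.20 (SE 0.08, adjusted p = 0.047 in limma). The call of LYZ was lost with scaling to a common median, with background correction and with the replicate number as a block (adjusted p = 0.399, 0.116 and 0.0589 in limma). The summed linear intensity of the immune list was 12585 to 12932 on ESRRG OE arrays and 10380 to 11433 on control arrays. CD68 and LCP1 had means of only 9.73 and 7.87 log2 units in ESRRG OE samples. Most of this sum is therefore the signal of LYZ, and it does not describe the list as a whole. The part of other cell types in the results was not tested.

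None of the 3 ESRRG probes was higher in ESRRG OE samples. The only ESRRG probe in the test was at 7.11, 6.79 and 6.79 log2 units in ESRRG OE samples, against 7.15, 7.35 and 7.31 in control samples. It was detected on 1 ESRRG OE array and on 3 control arrays, and its log2 fold change was -0.37 (SE 0.10, adjusted p = 0.00532 over genes in limma). No source places the probes relative to the introduced cDNA. They are therefore no check of the labels, and the groups are named here as the labels name them. The paper presents western blots and qRT-PCR of ESRRG overexpression in transduced gastric cancer lines, from a panel that included AGS. It does not say if the samples of these arrays were among them.

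Arrays correlated at 0.992 to 0.996 within the ESRRG OE group, at 0.992 to 0.993 within the control group and at 0.954 to 0.959 between the groups. Between 19483 and 20378 probes were detected on ESRRG OE arrays, against 18795 to 18939 on control arrays, so that the groups did not overlap in this count. This difference in the number of detected probes moves with every result below, and its part in them was not tested.

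The change was broad. Of 10920 genes tested, 5603 were called changed (51.3%), with 2634 higher in ESRRG OE samples (24.1%) and 2969 lower (27.2%). The values of the 3 ESRRG OE and the 3 control samples did not overlap for 6240 genes (57.1%). Most changes were small: the median size among the called genes was 0.43 log2 units, beside a median SE of 0.09 over all genes tested. Changes past 2-fold leaned to rises, with 319 genes higher (2.92%) and 113 lower (1.03%). Past 4-fold there were 45 rises and 3 falls, and past 16-fold 10 rises and 0 falls. At a mean level under 7.5 log2 units, near the background, 466 of 2782 genes rose (16.8%) and 358 fell (12.9%). Between 9 and 11 log2 units 872 of 2942 rose (29.6%) and 1012 fell (34.4%), so that genes near the background were called less often.

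The balance of rises and falls depended on the scaling. Rises were 47.0% of the called genes with quantile normalization and 70.7% when all arrays were instead scaled to a common median, and the median log2 fold change over all genes moved by 0.11, being -0.02 with quantile normalization and 0.10 with that scaling. All 319 genes over 2-fold higher stayed called and over 2-fold higher with that scaling, and 40 of the 113 genes over 2-fold lower stayed so. Medians of gene lists are therefore to be read beside the median over all genes in the same setting. That is -0.02 with quantile normalization and 0.10 with scaling to a common median. Of 70 gene lists with tested members, 11 turned the sign of their median with that scaling, and these are named where they are described. Relative to the all-gene median of each setting only 2 lists changed side, those of NF-kB targets and of YAP and SRF targets.

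TFF1 and FGG rose most. TFF1, a trefoil peptide of gastric mucus, was at 12.11, 12.43 and 12.17 log2 units in ESRRG OE samples, against 7.02, 6.80 and 6.94 in control samples, of which 1 was detected. FGG, the gamma chain of fibrinogen, was at 13.35, 13.19 and 13.22 in ESRRG OE samples, against 8.18, 8.13 and 8.17 in control samples. In both genes all ESRRG OE values lay far above all control values, beside a small spread within each group.

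Fibrinogen is the clotting protein of blood plasma and is made mainly by the liver, from 3 chains whose genes lie side by side on chromosome 4. All 3 rose, FGB by 4.85 log2 units (SE 0.09, adjusted p = 2.33e-15 in limma), FGA by 4.51 (SE 0.10) and FGG by 5.09 (SE 0.08). FGB was at 13.41, 13.23 and 13.43 log2 units in ESRRG OE samples, against 8.66, 8.46 and 8.39 in control samples. Of the protein-coding neighbours of this cluster in the order of assembly GRCh38.p14, PLRG1, a splicing protein gene on the FGB side, was higher by 0.82 log2 units (SE 0.08, adjusted p = 6.31e-07 in limma). LRAT on the FGG side was not among the genes tested.

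The cystatin genes form another cluster, on chromosome 20, and encode secreted inhibitors of cysteine proteases. CST4 was at 12.15, 12.27 and 12.33 log2 units in ESRRG OE samples, against 7.79, 7.79 and 7.65 in control samples. CST2 and CST5 were undetected on all control arrays and were at least 5.72-fold and at least 3.01-fold higher. CST1, between CST4 and CST2 in gene order, was already bright and rose by 0.31 log2 units (SE 0.08), a call that was lost with scaling to a common median (0.20, adjusted p = 0.119 in limma). CST3 on the outer side of CST4 was at a log2 fold change of 0.07 (SE 0.08) and did not pass the test. The sequences of CST1, CST2 and CST4 are close, so a probe of a cystatin may also read its relatives.

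Further rises in the top 20 concerned vitamin B12 carriage, steroids, glucose and signalling. TCN1, a cobalamin binder of secretions, was at 11.67, 11.50 and 11.72 log2 units in ESRRG OE samples, against 6.90, 6.96 and 7.03 in control samples. CBLIF, the gastric intrinsic factor that parietal cells secrete to carry cobalamin, was undetected on all control arrays and at least 9.95-fold higher. SULT2A1, which sulfonates steroids and bile acids, rose 18.3-fold, and HSD3B1, a steroid dehydrogenase, rose 11.1-fold with 1 control array above detection.

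HKDC1, a hexokinase-domain protein, was at 11.67, 11.74 and 11.88 log2 units in ESRRG OE samples, against 7.76, 7.33 and 7.64 in control samples. PTGS2, the inducible cyclooxygenase of prostaglandin synthesis, was at 12.21, 12.18 and 12.18 in ESRRG OE samples, against 8.72, 8.53 and 8.73 in control samples. SPINK1, a trypsin inhibitor, was the most variable of these in ESRRG OE samples, at 11.68, 11.49 and 12.04 log2 units, against 7.62, 7.59 and 7.52 in control samples. CDC42EP5, an effector of the small GTPase CDC42, PTPRH, a receptor tyrosine phosphatase, and S100P, a calcium-binding protein, rose by 4.67 (SE 0.09), 3.38 (SE 0.08) and 2.85 (SE 0.09) log2 units. DEPTOR, a binding inhibitor of the mTOR kinase, was undetected on all control arrays and at least 7.90-fold higher.

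**Figure D1:**
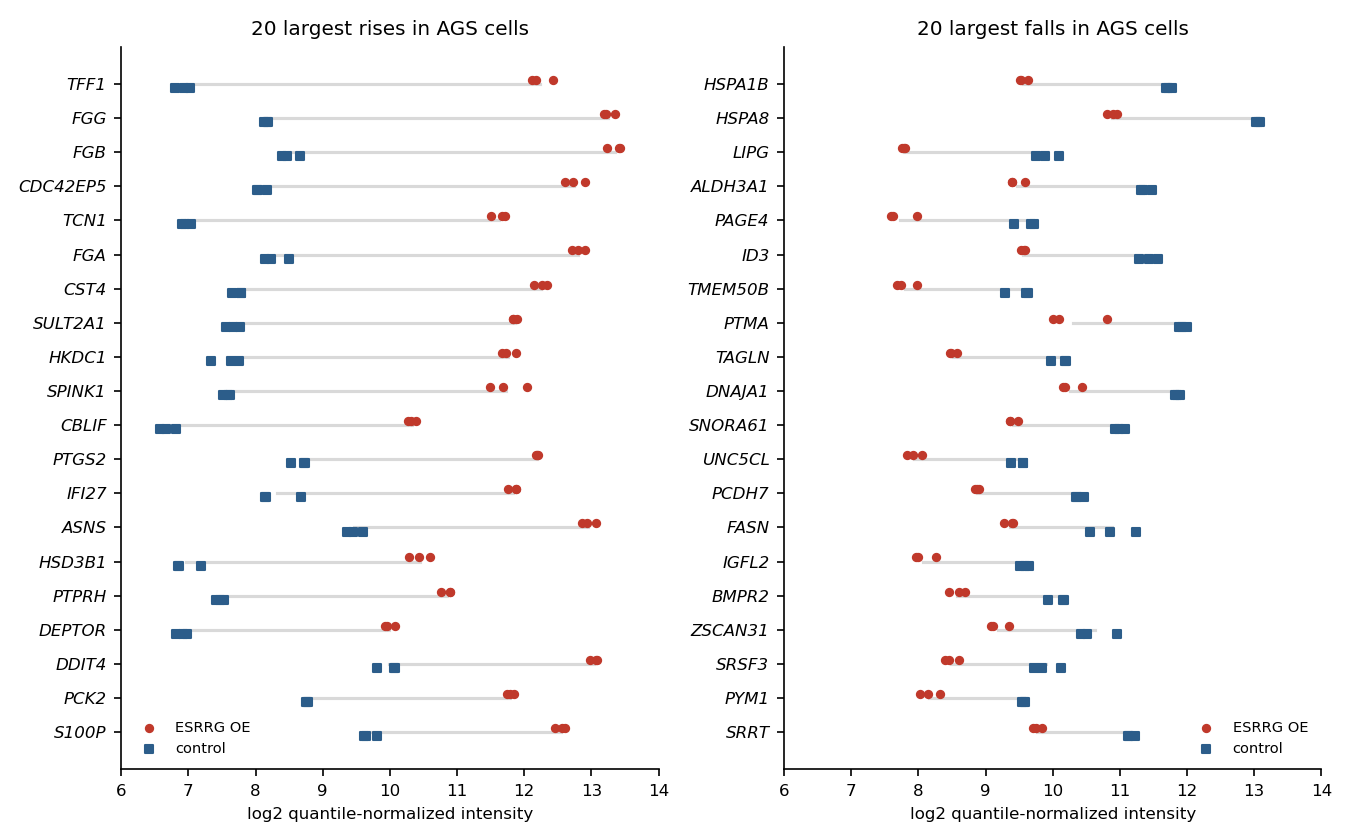
Log2 quantile-normalized intensity of the 20 genes with the largest rises (left) and the 20 with the largest falls (right) in AGS cells, with 1 point per array, 3 ESRRG OE (circles) and 3 control (squares), and a grey line between the group means. The rises reach 5.32 log2 units (TFF1) and the largest fall is a change of -2.17 (HSPA1B). Genes were shown only where the groups do not overlap, so the lack of overlap follows from the choice.

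Some genes crossed the detection limit. Among the called genes, 192 were detected on all 3 ESRRG OE arrays and on no control array, and 43 the other way round, counts that follow from how the genes were selected and stand here as a description. The lower bounds were mostly small, with 16 of the 192 above 2-fold and 1 of the 43. Besides CBLIF, DEPTOR and the cystatins, the largest bounds were in TRIB3, a pseudokinase of the stress response (at least 4.35-fold), LINC02897, a long noncoding RNA (at least 4.23-fold), MMP10, a matrix metalloproteinase (at least 3.93-fold), and SLC9A4, a sodium-proton exchanger of the stomach (at least 3.05-fold). The only loss past 2-fold was GRHL3, a grainyhead transcription factor of surface epithelia, at 6.90, 6.90 and 6.96 log2 units in ESRRG OE samples, all undetected, against 8.05, 8.09 and 7.99 in control samples. AFP, the fetal plasma protein, was undetected on all ESRRG OE arrays and at least 1.47-fold lower.

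Genes of the amino acid response rose together. ATF4 is the transcription factor that cells make when amino acids are short or the ER is under stress, and it activates genes for amino acid synthesis, uptake and tRNA charging. Of 29 tested genes of the ATF4 list, 28 rose and 1 fell, with a median log2 fold change of 1.40, against -0.02 over all genes tested, and 3 of the 28 rises were undetected on all control arrays. ASNS, which makes asparagine, was at 13.07, 12.93 and 12.86 log2 units in ESRRG OE samples, against 9.60, 9.36 and 9.46 in control samples. DDIT4, which restrains mTOR complex signalling under stress, was at 13.09, 13.07 and 12.97 in ESRRG OE samples, against 10.08, 10.07 and 9.80 in control samples. PCK2, the mitochondrial phosphoenolpyruvate carboxykinase, rose by 3.02 log2 units (SE 0.08). The only fall in the list was ATF5, a transcription factor related to ATF4, at -0.50.

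The cytosolic aminoacyl-tRNA synthetases attach amino acids to tRNA. Of 18 tested, 11 rose and 1 fell, with a median log2 fold change of 0.74. GARS1, the glycine enzyme, was at 13.10, 12.95 and 13.16 log2 units in ESRRG OE samples, against 11.46, 11.38 and 11.62 in control samples, and AARS1, the alanine enzyme, rose by 1.56 log2 units (SE 0.09). HARS1, the histidine enzyme, went the other way, at 9.11, 9.17 and 9.16 in ESRRG OE samples, against 9.97, 9.84 and 9.76 in control samples. The group was thus split, with the remaining 6 not past the test.

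Solute carriers showed the same lean, with 16 of 21 higher, 3 lower and a median of 0.69. Of these rises 1 was undetected on all control arrays. SLC7A11, the cystine importer, was at 9.27, 9.22 and 9.30 log2 units in ESRRG OE samples, against 7.02, 6.79 and 7.07 in control samples, and SLC38A2, a neutral amino acid transporter, rose by 1.97 (SE 0.11). In the list of serine, folate and methionine metabolism 11 of 22 genes rose and 9 fell, where 1 of the rises was undetected on all control arrays. CTH, which makes cysteine from cystathionine, and PSAT1, of serine synthesis, rose by 2.54 (SE 0.09) and 1.80 log2 units, whereas TYMS, which makes thymidylate, fell by 1.12 and SRM, the spermidine synthase, by 1.04.

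Promoter sequences were read beside these changes. RefSeq promoters (GRCh38.p14, from 250 bases before to 50 after each start) matched 258 of the 319 genes over 2-fold higher, 92 of the 113 over 2-fold lower and 8786 of all genes tested. The letters TGATGCAA, of the composite element that ATF4 binds with C/EBP factors, stood on either strand in 8 of the 258 promoters (3.10%), in 0 of the 92, in 0.546% of the promoters of all genes tested and in 0.923% of all 27305 promoters of the table. The AP-1 letters TGACTCA stood in 13 of the 258 (5.04%), 1 of the 92 (1.09%), 3.13% of those tested and 4.92% of the table. The extended ERR site TNAAGGTCA stood in 1 of the 258 (0.388%), 0 of the 92, 0.558% of those tested and 0.963% of the table. None of these 3 motifs contains another, and a match is a description of letters, not a site. The 8 genes with the ATF4 letters were CHAC1, BCL6, AARS1, HK1, FUT1, SGPP2, GOT1 and MARS1, and ECM1 alone held the ERR letters. The bases before the start are shown for those whose match lies wholly there, 5′ to 3′ along the gene, with matches in capitals.
CHAC1 (chr15:40953221-40953470, plus strand): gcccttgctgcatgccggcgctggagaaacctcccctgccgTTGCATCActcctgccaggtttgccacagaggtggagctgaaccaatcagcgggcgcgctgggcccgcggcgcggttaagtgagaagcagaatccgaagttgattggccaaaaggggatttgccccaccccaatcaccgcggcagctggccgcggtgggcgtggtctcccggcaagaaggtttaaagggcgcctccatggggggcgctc
AARS1 (chr16:70289507-70289756, minus strand): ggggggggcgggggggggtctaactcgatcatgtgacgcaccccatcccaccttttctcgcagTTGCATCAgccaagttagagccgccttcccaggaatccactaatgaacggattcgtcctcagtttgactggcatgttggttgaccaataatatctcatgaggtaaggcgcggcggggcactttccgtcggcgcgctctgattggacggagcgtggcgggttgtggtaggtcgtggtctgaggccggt
HK1 (chr10:69269750-69269999, plus strand): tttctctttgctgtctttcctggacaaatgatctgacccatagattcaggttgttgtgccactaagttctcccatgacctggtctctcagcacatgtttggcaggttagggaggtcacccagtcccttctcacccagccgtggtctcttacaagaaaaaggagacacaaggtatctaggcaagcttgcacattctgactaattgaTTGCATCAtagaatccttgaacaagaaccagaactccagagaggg
GOT1 (chr10:99430625-99430874, minus strand): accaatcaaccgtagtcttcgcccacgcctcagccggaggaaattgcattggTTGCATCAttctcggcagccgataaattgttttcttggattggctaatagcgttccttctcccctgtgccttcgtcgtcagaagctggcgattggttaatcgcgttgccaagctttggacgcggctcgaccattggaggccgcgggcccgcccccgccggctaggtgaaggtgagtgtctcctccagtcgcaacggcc
FUT1 (chr19:48755359-48755608, minus strand): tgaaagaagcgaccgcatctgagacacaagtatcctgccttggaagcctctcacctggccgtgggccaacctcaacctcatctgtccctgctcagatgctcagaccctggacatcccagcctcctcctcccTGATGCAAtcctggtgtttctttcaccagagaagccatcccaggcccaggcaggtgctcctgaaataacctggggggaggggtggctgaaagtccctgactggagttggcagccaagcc
ECM1 (chr1:150507859-150508108, plus strand): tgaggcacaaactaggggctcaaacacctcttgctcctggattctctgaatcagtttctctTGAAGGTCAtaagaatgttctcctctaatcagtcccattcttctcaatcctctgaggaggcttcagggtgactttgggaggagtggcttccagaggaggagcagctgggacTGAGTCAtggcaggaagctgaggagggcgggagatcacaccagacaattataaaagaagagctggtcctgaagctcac
The capitals in the first 4 of these are the reverse complement of the ATF4 letters, those of FUT1 are the ATF4 letters, and ECM1 holds the ERR letters before the reverse complement of the AP-1 letters. These genes were named because of the match. CHAC1, which degrades glutathione in the ATF4 response, was at 10.09, 10.22 and 10.34 log2 units in ESRRG OE samples, against 7.73, 7.93 and 7.96 in control samples. ECM1, a secreted extracellular matrix protein, was at 10.10, 10.18 and 10.12 in ESRRG OE samples, against 7.39, 7.53 and 7.55 in control samples. HK1, a hexokinase, GOT1, the cytosolic aspartate transaminase, and FUT1, a fucosyltransferase of blood group antigens, rose by 1.50 (SE 0.09), 1.39 (SE 0.08) and 1.47 (SE 0.09) log2 units.

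**Figure D2:**
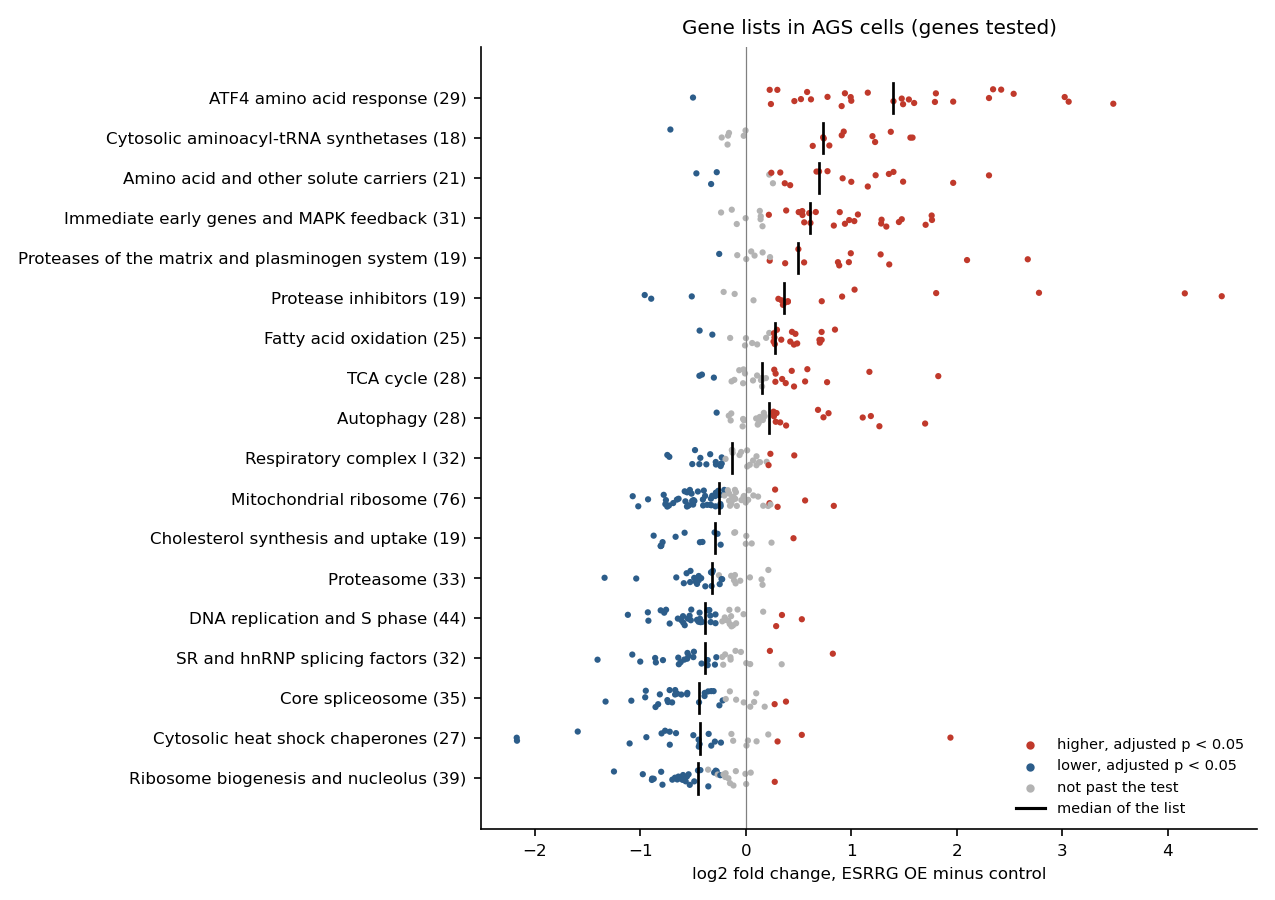
Log2 fold change, ESRRG OE minus control, of each tested member of 18 gene lists in AGS cells, with the number tested in brackets, members past the test in red (higher) or blue (lower) and the list median as a bar. The medians run from 1.40 in the ATF4 list to -0.45 in ribosome biogenesis.

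Mitochondrial genes did not move as a block. The tricarboxylic acid cycle list, which holds the enzymes that oxidize acetyl-CoA, had 12 of 28 genes higher and 3 lower (median 0.15). IDH2, the mitochondrial NADP isocitrate dehydrogenase, was at 10.66, 10.60 and 9.99 log2 units in ESRRG OE samples, against 8.53, 8.80 and 8.45 in control samples, so that ESRRG OE replicate 3 stood lower than the other two. IDH1, its cytosolic relative, rose by 1.17 (SE 0.10). For fatty acid oxidation 16 of 25 genes rose and 2 fell (median 0.27), led by DECR1, which handles unsaturated fatty acids, at 0.84 (SE 0.08), and CPT1A, which admits long-chain fatty acids to mitochondria, at 0.72 (SE 0.08).

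The respiratory chain was mixed. In complex I, the entry point of electrons from NADH, 3 of 32 genes rose and 14 fell, with a median of -0.13. With scaling to a common median 5 rose and 7 fell. The median turned above 0 but stayed below the 0.10 over all genes tested with that scaling. NDUFB7, an accessory subunit, was at 9.54, 9.73 and 9.68 log2 units in ESRRG OE samples, against 10.36, 10.48 and 10.34 in control samples, while the core subunit NDUFV1 was higher by 0.46 (SE 0.11). Complexes II to IV with cytochrome c had 8 of 23 genes higher and 5 lower, among them UQCRC2 at 0.56 (SE 0.09) and COX6B1 at -0.62.

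The mitochondrial ribosome, which translates the proteins encoded by mitochondrial DNA, had 5 of 76 genes higher and 44 lower (median -0.26). With scaling to a common median 9 were higher and 24 lower (median -0.09). MRPS26 was at 8.997, 9.15 and 8.98 log2 units in ESRRG OE samples, against 10.05, 10.31 and 9.98 in control samples, and MRPL20 fell by 1.02 (SE 0.10). Protein import and proteases of mitochondria had 6 of 30 genes higher and 10 lower, with a median of -0.15. With that scaling 10 were higher and 7 lower. The median turned above 0 but stayed below the 0.10 over all genes tested. The protease gene LONP1 and the chaperone gene HSPA9 rose by 0.77 (SE 0.08) and 0.62 (SE 0.09), whereas the chaperonin cofactor HSPE1 fell by 1.32 (SE 0.11).

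Within the ERR list, which holds the family and its textbook targets, 12 of 22 tested genes rose and 3 fell, with a median of 0.29. Among the rises of these targets 1 was undetected on all control arrays. ESRRA, the family member that many of these targets share, was at 9.87, 9.95 and 9.84 log2 units in ESRRG OE samples, against 9.24, 9.16 and 9.22 in control samples. The largest members, TFF1, the fibrinogen genes and SULT2A1, are those already given. This list was chosen with results of these samples known, so its direction is no independent evidence.

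Sugar and lipid genes split by pathway. Of 21 glycolysis genes 13 rose and 2 fell (median 0.29), with HK2, another hexokinase, at 10.89, 10.69 and 10.84 log2 units in ESRRG OE samples, against 8.91, 8.44 and 8.63 in control samples. Of 18 genes of the hypoxia response 17 rose and 1 fell, with ADM, a vasodilator peptide, higher by 2.53, and NDRG1 by 2.30. In fatty acid synthesis and desaturation 7 of 13 genes rose and 4 fell (median 0.22, and 0.34 with scaling to a common median). This list had opposite ends. FASN, the synthase itself, was at 9.39, 9.28 and 9.42 in ESRRG OE samples, against 11.23, 10.86 and 10.55 in control samples.

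SCD, the desaturase that makes oleate, went up, at 12.47, 12.31 and 12.21 log2 units in ESRRG OE samples, against 11.05, 10.94 and 10.99 in control samples. AGPAT2, of the same list, rose by 0.84 (SE 0.09), and ACLY, which supplies cytosolic acetyl-CoA, fell by 0.83. Cholesterol synthesis and uptake had 1 of 19 genes higher and 12 lower (median -0.30, and -0.17 with scaling to a common median), and LSS, the lanosterol synthase, fell by 0.87 log2 units (SE 0.08). LIPG, the endothelial lipase, was at 7.75, 7.80 and 7.79 in ESRRG OE samples, against 10.10, 9.75 and 9.89 in control samples, among the 3 falls past 4-fold.

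Genes of autophagy, the delivery of cell contents to lysosomes, mostly rose or did not pass the test, with 14 of 28 higher and 1 lower (median 0.22). MAP1LC3B, which coats the forming autophagosome, was at 10.19, 10.47 and 10.45 log2 units in ESRRG OE samples, against 8.66, 8.66 and 8.68 in control samples, and its relative GABARAPL1 rose by 1.27 (SE 0.11). For lysosomes and the proton pump that acidifies them 8 of 37 genes rose and 11 fell. These shares are near the 24.1% higher and 27.2% lower over all genes tested. With scaling to a common median 11 rose and 6 fell. NPC1, the lysosomal cholesterol exporter, was higher by 1.36 (SE 0.10), and the pump subunit ATP6V0D1 fell by 0.58.

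Most genes tested of growth factor signalling feedback rose. Immediate early genes are the transcription factors made within minutes of a growth signal, and the MAPK feedback genes are phosphatases and adaptors induced by the same kinases. Of 31 tested in this list 23 rose and 0 fell past the adjusted threshold (median 0.61). DUSP4, a MAPK phosphatase, was at 10.65, 10.72 and 10.79 log2 units in ESRRG OE samples, against 8.99, 9.11 and 8.77 in control samples. FOS, a subunit of AP-1, was at 10.32, 10.11 and 10.54 in ESRRG OE samples, against 8.73, 8.36 and 8.61 in control samples.

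Among receptor tyrosine kinases, their ligands and adaptors 13 of 32 genes rose and 3 fell (median 0.17). Of these rises 2 were undetected on all control arrays. The receptor EGFR was at 10.07, 10.19 and 9.99 log2 units in ESRRG OE samples, against 8.36, 8.18 and 8.54 in control samples. Its ligand HBEGF rose by 1.70 (SE 0.08), whereas the related receptor ERBB2 was at -0.44, a call lost with scaling to a common median.

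Proteases, adhesion receptors and interferon genes also leaned to rises. Matrix and plasminogen proteases had 12 of 19 genes higher and 1 lower (median 0.50), where 3 of the rises were undetected on all control arrays. It was led by TMPRSS2, a serine protease of the cell surface, at 10.39, 10.29 and 10.54 log2 units in ESRRG OE samples, against 7.84, 7.58 and 7.78 in control samples. Of 25 genes of epithelial adhesion 13 rose and 4 fell, where 1 of the rises was undetected on all control arrays. The collagen-binding integrin ITGA2 was higher by 1.46 (SE 0.09) and the fibronectin-binding ITGA5 by 1.33 (SE 0.10). Interferon-stimulated genes had 13 of 28 higher and 2 lower (median 0.18). IFI27 dominated them, at 11.76, 11.88 and 11.88 in ESRRG OE samples, against 8.14, 8.67 and 8.15 in control samples, followed by the exonuclease ISG20 at 1.57 (SE 0.08). HLA-B, which presents peptides to T cells, rose by 1.24 (SE 0.10).

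Epithelial identity genes moved in several directions. Of 24 gastric genes on the array 13 were tested, of which 7 rose and 3 fell. The tested set depends on the outcome here, since 5 of the 7 rises were undetected on all control arrays and entered only through the ESRRG OE arrays. CLDN18, a claudin of the stomach, was at 8.58, 8.56 and 8.58 log2 units in ESRRG OE samples, against 6.90, 6.66 and 6.80, all undetected, in control samples, at least 2.97-fold higher. The subunits of the parietal cell proton pump were likewise undetected in control samples, with ATP4B at least 2.66-fold and ATP4A at least 1.77-fold higher. The falls of the gastric list included CTSE, at -0.43 (SE 0.10) from a control mean of 12.19, and SOX2, at -0.235 (SE 0.08). The call of SOX2 was lost with scaling to a common median. Intestinal genes had 11 of 15 tested higher and 2 lower, where 3 of the rises were undetected on all control arrays. LGALS4, a galectin, and REG1A, a regenerating protein, both detected on all arrays, rose by 1.11 (SE 0.09) and 1.08 (SE 0.09), while REG4, also a regenerating protein, fell by 1.09 (SE 0.08).

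Endoderm and epithelial transcription factors had 13 of 23 higher and 5 lower (median 0.27). CEBPB was at 12.01, 12.002 and 11.985 log2 units in ESRRG OE samples, against 10.10, 10.24 and 10.28 in control samples. KLF4, a factor of differentiating epithelium, rose by 1.29 (SE 0.08), while PITX1 fell by 0.85.

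The largest falls were in chaperones of the cytosol, which fold new and damaged proteins. HSPA8, the constitutive HSP70, was at 10.90, 10.96 and 10.80 log2 units in ESRRG OE samples, against 13.03, 13.06 and 13.08 in control samples. HSPA1B, a stress-induced HSP70, was at 9.63, 9.52 and 9.53 in ESRRG OE samples, against 11.77, 11.72 and 11.69 in control samples. Its probe may also read the nearly identical HSPA1A. DNAJA1, a partner of HSP70, was at 10.15, 10.18 and 10.44 in ESRRG OE samples, against 11.89, 11.84 and 11.81 in control samples.

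Of 27 genes of the heat shock list 18 fell and 3 rose (median -0.44, and -0.26 with scaling to a common median). Among the falls 2 were undetected on all ESRRG OE arrays. HSP90AB1, the constitutive HSP90, fell by 0.77 (SE 0.09). HSPB8, a small heat shock protein that works with autophagy factors, was the exception in size, at 10.22, 10.56 and 10.33 log2 units in ESRRG OE samples, against 8.53, 8.47 and 8.30 in control samples. Chaperones of the endoplasmic reticulum were split, with 7 of 22 higher and 10 lower, and the reverse lean with scaling to a common median (10 higher and 5 lower). Its HSP70, HSPA5, fell by 0.49 (SE 0.09), and XBP1, the transcription factor of the unfolded protein response, rose by 0.96 (SE 0.08).

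**Figure D3:**
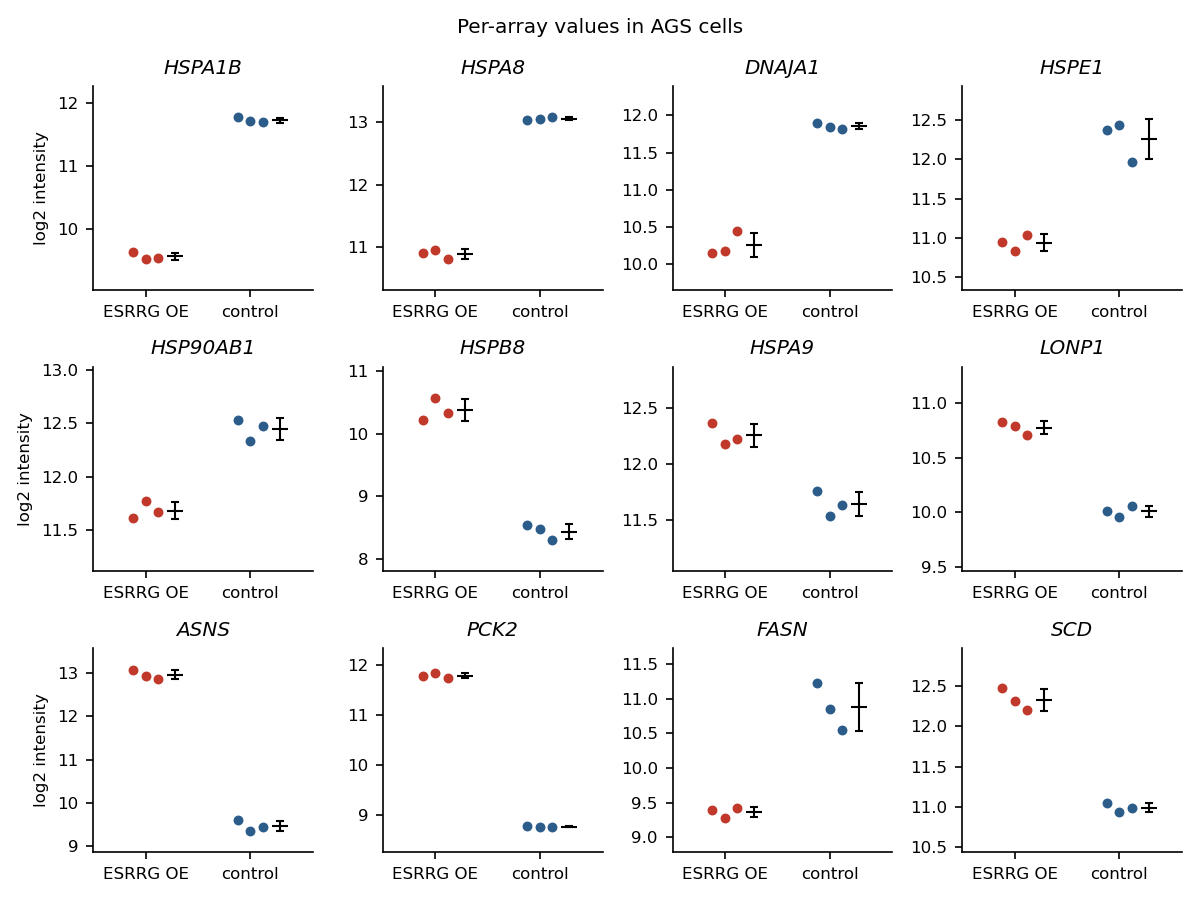
Log2 quantile-normalized intensity on each AGS array for 12 genes of folding, amino acid and lipid metabolism, ESRRG OE left and control right, with the mean and SD of the 3 arrays beside the points; each panel has its own axis range. HSPA1B, HSPA8, DNAJA1, HSPE1, HSP90AB1 and FASN lie lower in ESRRG OE samples, and HSPB8, HSPA9, LONP1, ASNS, PCK2 and SCD lie higher, with no overlap between the groups. The 12 genes were chosen for display, and 57.1% of all genes tested had no overlap.

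Other large falls came from unrelated groups. ALDH3A1, an aldehyde dehydrogenase, was at 9.40, 9.59 and 9.40 log2 units in ESRRG OE samples, against 11.47, 11.34 and 11.32 in control samples. PAGE4, a cancer and testis antigen on the X chromosome, was at 7.60, 7.63 and 7.97 in ESRRG OE samples, against 9.43, 9.73 and 9.68 in control samples. PTMA, the nuclear protein prothymosin alpha, was at 10.001, 10.10 and 10.81 in ESRRG OE samples, against 11.996, 11.93 and 11.88 in control samples, with ESRRG OE replicate 3 standing above its group. TAGLN, an actin-binding protein of smooth muscle, and PCDH7, a protocadherin, fell by 1.61 (SE 0.09) and 1.52 (SE 0.08).

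BMP signalling gave a set of opposite changes. BMP2, a secreted ligand, was at 9.81, 9.73 and 9.73 log2 units in ESRRG OE samples, against 7.33, 7.48 and 7.51 in control samples. Its receptor gene BMPR2 was at 8.60, 8.45 and 8.69 in ESRRG OE samples, against 10.18, 9.92 and 10.15 in control samples. The ID genes, textbook BMP targets that block other transcription factors, had log2 fold changes of -1.87 in ID3 (SE 0.09), -0.93 in ID2 (SE 0.09) and -0.91 in ID1 (SE 0.08), while ID4 was not among the genes tested. In the whole TGF-beta and BMP list 7 of 20 genes rose and 7 fell.

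RNA processing genes leaned to falls. Small nucleolar RNAs (snoRNAs) mostly guide the modification of ribosomal and spliceosomal RNA, and most are cut out of the introns of host genes. Of 121 snoRNA genes with a tested probe 69 were lower (57.0%) and 5 higher, with a median log2 fold change of -0.29, against -0.02 over protein-coding genes. With scaling to a common median 45 were lower and 5 higher, and the median was -0.16. With background correction the median was -0.61. The median level of these snoRNA genes was 7.46 log2 units, near the background, against 8.47 over protein-coding genes. SNORA61 was at 9.37, 9.37 and 9.49 log2 units in ESRRG OE samples, against 10.99, 11.08 and 10.92 in control samples, and SNORD99 fell by 1.005 (SE 0.08). A probe of a snoRNA may read the precursor or the host transcript, which this table does not separate.

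Among the 5 snoRNA genes that rose were SNORD3A, SNORD3C and SNORD3D, copies of the U3 RNA with nearly the same sequence, so that they may be 1 measurement. SNORD3A was at 8.57, 8.95 and 8.96 log2 units in ESRRG OE samples, against 7.97, 8.01 and 7.75 in control samples. The host genes listed had 8 of 14 lower and 2 higher, and 5 lower and 2 higher with scaling to a common median. SNHG9 was at 7.90, 8.44 and 8.46 in ESRRG OE samples, against 9.46, 9.63 and 8.88 in control samples. Of 221 long noncoding RNAs 38 were higher and 29 lower (13.1%), and DANCR, which also hosts snoRNAs, fell by 1.36 log2 units (SE 0.08). Of 45 microRNA genes with a tested probe 3 were higher and 6 lower (13.3%). Over all genes tested 24.1% were higher and 27.2% lower. Both classes were called less often than that, and their median levels of 7.21 and 7.12 log2 units lie near the background.

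**Figure D4:**
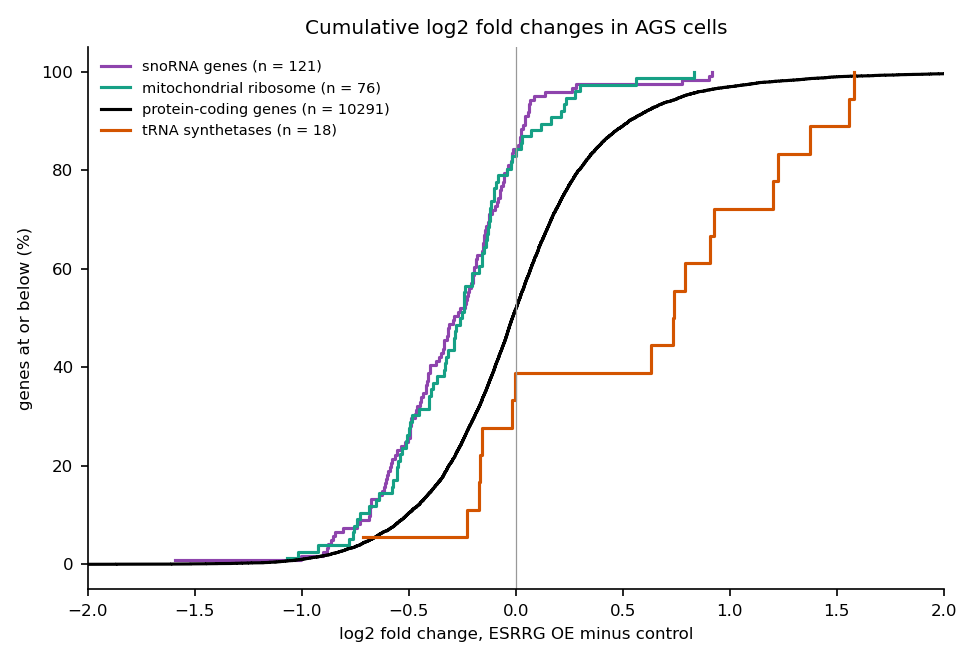
Cumulative share (%) of genes at or below each log2 fold change, ESRRG OE minus control, for snoRNA genes (121), mitochondrial ribosome genes (76), protein-coding genes (10291) and cytosolic tRNA synthetases (18) in AGS cells. The snoRNA and mitochondrial ribosome curves lie left of the protein-coding curve, with medians of -0.29 and -0.26, and the synthetase curve lies right of it, with a median of 0.74.

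Genes that make ribosomes leaned to falls as well. Of 39 genes of ribosome biogenesis 26 were lower and 1 higher (median -0.45, and -0.26 with scaling to a common median). IMP3, a protein of the U3 particle, was at 10.71, 10.65 and 10.61 log2 units in ESRRG OE samples, against 11.94, 11.90 and 11.88 in control samples, and NHP2, of the particles that pseudouridylate RNA, fell by 0.98 (SE 0.10). Cytosolic ribosomal proteins had 17 of 67 lower and 0 higher, with a median of -0.09. That share of falls is near the 27.2% over all genes tested, and RPL29 fell by 1.28 (SE 0.10).

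Splicing genes leaned the same way. The core spliceosome had 25 of 35 genes lower and 2 higher (median -0.44), and the SR and hnRNP factors, which bind exons and introns, 20 of 32 lower and 2 higher (median -0.39). SRSF3 was at 8.40, 8.46 and 8.61 log2 units in ESRRG OE samples, against 10.12, 9.72 and 9.85 in control samples. U2AF1, which reads the end of the intron, fell by 1.33 (SE 0.11), and SRRT and PYM1, which act in RNA processing and on exon junction complexes, by 1.40 (SE 0.08) and 1.40 (SE 0.09). With scaling to a common median the medians of these lists were -0.36 and -0.26.

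Protein degradation and DNA synthesis leaned the same way. Of 33 proteasome genes 23 were lower and 0 higher (median -0.32). With scaling to a common median 11 were lower and 2 higher (median -0.21). The activator gene PSME3 was at 7.97, 8.08 and 8.15 log2 units in ESRRG OE samples, against 9.54, 9.16 and 9.52 in control samples. Of 44 genes of DNA replication 28 fell and 3 rose (median -0.39, and -0.25 with scaling). Among the falls 1 was undetected on all ESRRG OE arrays. PCNA, the sliding clamp of the polymerases, was at 10.86, 11.15 and 11.31 in ESRRG OE samples, against 12.11, 11.997 and 11.997 in control samples. TYMS was at 10.47, 10.48 and 10.63 in ESRRG OE samples, against 11.64, 11.70 and 11.60 in control samples, and TYMSOS, the transcript antisense to it, was higher by 0.66 (SE 0.08).

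Cell cycle regulators were less uniform. Their counts stand beside 24.1% higher and 27.2% lower over all genes tested. In the list of G1 cyclins, kinases and inhibitors 5 of 21 genes rose and 11 fell (median -0.22). With scaling to a common median 6 rose and 6 fell (median -0.02). CDKN2B, an inhibitor of CDK4 and CDK6, was at 10.49, 10.43 and 10.49 log2 units in ESRRG OE samples, against 8.67, 8.59 and 8.80 in control samples, and CDKN1C, an inhibitor of another family, fell by 1.13 (SE 0.10). G2 and mitosis genes had 7 of 39 higher and 16 lower (median -0.19), and 7 higher and 11 lower with that scaling (median -0.03). Of 19 genes known as p53 targets 6 rose and 8 fell, and TP53I3, an oxidoreductase gene, fell by 1.38 (SE 0.08). In the Notch list 7 of 23 genes rose and 4 fell, with the ligand JAG1 at 8.16, 7.99 and 8.07 in ESRRG OE samples, against 9.33, 8.90 and 9.28 in control samples. The medians of the p53, DNA repair, nuclear transport, Wnt, peroxisome, lysosome, peroxiredoxin and YAP and SRF lists lay between -0.17 and 0. All turned above 0 with scaling to a common median, which also raised the median over all genes to 0.10. Relative to the all-gene median of each setting, the YAP and SRF list changed side and the others did not. DNA repair stood at -0.15 and -0.09 relative to it, and the lysosome list at 0.01 and 0.06. These distances were not tested.

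A sort of all genes by the letters of their symbols gave 71 groups of at least 15 tested genes. MRPL genes, of the large mitochondrial subunit, had the highest share of falls, with 32 of 50 lower and 1 higher, followed by SNORD (40 of 69 lower), POLR (19 of 33), SNORA (29 of 51) and RBM (17 of 30). The POLR group holds subunits of the RNA polymerases and the RBM group RNA-binding proteins. For rises the highest shares were in STK kinases (8 of 18 higher), RAB GTPases of membrane traffic (21 of 49) and TBC proteins (11 of 27), which include their regulators. These groups overlap with the lists above and are no further evidence for them.

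Probe by probe, 8398 of 19536 probes changed (43.0%), 3957 higher and 4441 lower. At an unadjusted p under 0.001, the threshold of the methods, 5069 probes passed in limma and 2038 in an equal-variance test with each probe's own spread. Of 4823 tested probes without a gene symbol 29.2% changed, against 47.5% of the tested probes with a symbol. For 33 genes 2 tested probes were called in opposite directions. The widest gap was in ZP3, a zona pellucida protein gene, whose probes changed by 1.27 (SE 0.12) and -0.98 (SE 0.09) log2 units, followed by TMEM97 (0.28 and -1.25), HNRNPDL (0.82 and -0.61), GSTM1 (0.88 and -0.50) and LUC7L3 (0.44 and -0.83). Levels of these genes are uncertain here, since their probes may read different transcripts.

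The same vectors in MKN45 cells gave a comparison in samples that took no part in calling the AGS genes. All 12 arrays were, however, normalized together, and the probe of each gene was chosen by its mean over all 12. Of the 319 genes over 2-fold higher in AGS cells, 318 were tested in MKN45 cells (all but TMEM163), and 295 were called higher there, where 20.1% of 11240 genes were called higher and 20.9% lower. Both genes that were called lower there, LGALS4 at -0.45 (SE 0.10) and REG1A at -0.40 (SE 0.08), belong to the intestinal list. For REG1A the change in AGS cells minus that in MKN45 cells was 1.48 (SE 0.11, adjusted p = 9.64e-08 in limma). Of the 113 genes over 2-fold lower in AGS cells 110 were called lower in MKN45 cells and 0 higher. The MKN45 medians of these sets were 0.94 and -0.74 log2 units, against -0.01 over all MKN45 genes.

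Differences between the lines were tested as an interaction of line and vector. Of 11563 genes 1351 passed (11.7%), 700 with a more positive change in AGS cells and 651 with a more negative one. This count was 381 when the arrays were scaled to a common median, with 138 more positive and 243 more negative in AGS cells, and 890 with background correction (443 and 447). The balance between the lines therefore has no settled direction. FGG is an example of a rise in both lines that was larger in AGS cells, with a log2 fold change of 5.09 in AGS and 3.14 in MKN45 cells (difference 1.95, SE 0.10, adjusted p = 4.84e-10 in limma). The ESRRG OE means of FGG were 13.25 in AGS and 13.61 in MKN45 cells, where the brightest probe of each array stood at 13.95, and the part of this upper limit in the difference was not tested. For TFF1, at 5.32 in AGS and 5.50 in MKN45 cells, the difference was -0.18 and did not pass the test.

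**Figure D5:**
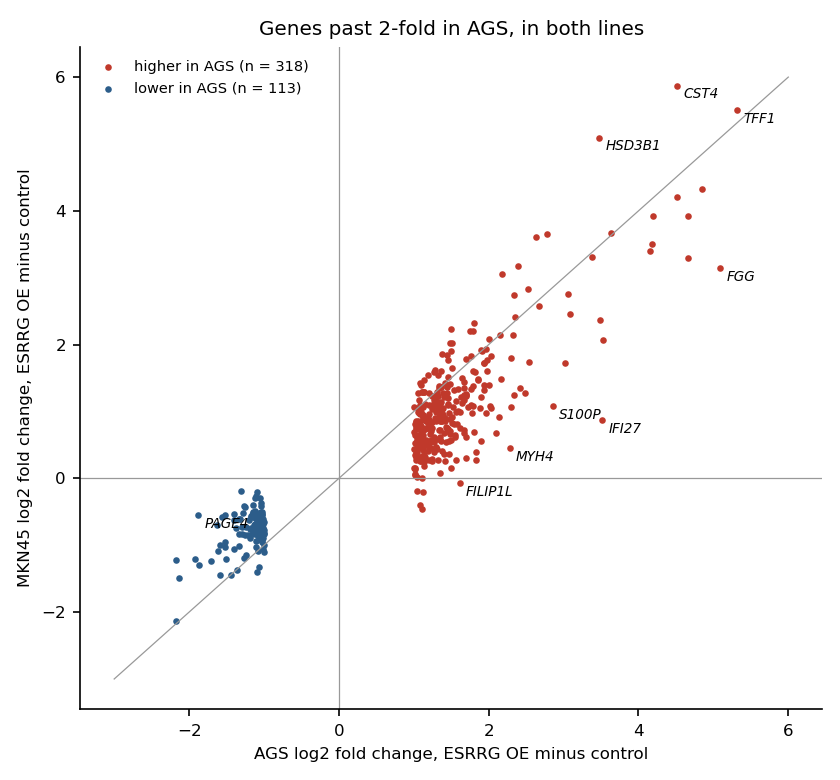
Log2 fold change, ESRRG OE minus control, in AGS cells (horizontal) and MKN45 cells (vertical) for the 318 genes over 2-fold higher and the 113 genes over 2-fold lower in AGS cells, with a diagonal of equal change. The genes were chosen on the horizontal axis, so the empty middle follows from the choice; 295 of the 318 and 110 of the 113 were also called in the same direction in MKN45 cells.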

How the data were processed

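RNA of the 12 samples was hybridized to Illumina HumanHT-12 V4 BeadChips. The authors deposited non-normalized probe intensity with a detection p-value for each probe (GenomeStudio, no version stated), and log2 quantile-normalized values. The log2 values were tested as deposited, since repeating the quantile normalization of the 12 arrays moved no value by more than 5e-04. Quantile normalization gives all arrays the same spread of values, so a shift shared by most genes is removed by it. The number of arrays limits the precision.

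Of 47323 probes 30113 had 1 gene symbol in the platform annotation, 8 had several and 17202 had none, and the brightest probe (mean of the 12 arrays) stood for each gene. The groups were compared with limma 3.58.1 in R 4.3.3 (lmFit, eBayes), without a block, with Benjamini-Hochberg adjustment over all genes tested. On simulated data of 10920 genes the fit recovered 72 of 100 changes of 0.5 log2 units and 95 of 100 changes of 1 log2 unit, with 11 false calls. That simulation changed a small share of genes, all upward, with independent noise, whereas 51.3% of genes were called here in both directions. Its figures check the fit and do not give the recovery or false calls in these data. For a gene undetected on every array of a group, the fold given is a bound, "at least": the other group's mean against, per array, the higher of the lowest signal of a detected probe and the signal of the gene.

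Gene lists hold textbook members. The genes and lists were chosen with earlier results of these data known. Genes named are the 20 largest rises and falls without overlap, up to 2 rises and 2 falls per list, the largest changes of detection, the 5 largest differences between the lines in each direction, the 5 widest probe conflicts and ESRRG. Others, such as neighbours, promoter matches and relatives of a named gene, fell outside this rule and were named after their values were seen. Gene order and promoters are those of RefSeq (GRCh38.p14). Alternatives concerned scaling, background correction, detection filter, probe choice, samples in the fit, a replicate block, an equal-variance test with each gene's own spread (the methods name a random variance test, which was not run) and leaving out each array.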

Additional observations from a re-analysis of the deposited data

Results flagged for a closer look

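The response to ESRRG overexpression differed between AGS and MKN45 cells for 1351 of 11563 genes in the interaction fit of limma. The 5 largest differences in each direction are given as the log2 fold change in AGS minus that in MKN45 cells.

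IFI27, an interferon-stimulated gene, differed by 2.65 (SE 0.17, adjusted p = 1.23e-08), with a rise of 3.52 in AGS and 0.87 in MKN45 cells. Its mean level in ESRRG OE samples was 11.84 in AGS and 11.69 in MKN45 cells, and in control samples 8.32 in AGS and 10.82 in MKN45 cells, so that the lines lay further apart in control than in ESRRG OE samples. FGG had the same form, with a difference of 1.95, means of 13.25 in AGS and 13.61 in MKN45 cells in ESRRG OE samples, and 8.16 and 10.47 in control samples. S100P differed by 1.78, with a rise of 2.85 in AGS and 1.08 in MKN45 cells, and again its control mean was lower in AGS cells, at 9.69 against 11.08. MYH4, a myosin heavy chain gene of skeletal muscle, differed by 1.83 (2.28 in AGS and 0.45 in MKN45 cells). FILIP1L, a filamin-interacting protein gene, differed by 1.69. It was at 11.01, 11.13 and 10.83 log2 units in AGS ESRRG OE samples, against 9.36, 9.41 and 9.36 in AGS control samples, and its log2 fold change in MKN45 cells was -0.08.

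In the other direction HSD3B1 differed by -1.62, with a rise of 3.48 in AGS and 5.09 in MKN45 cells, and CST4 by -1.36, with rises of 4.51 and 5.87. CST1 differed by -1.14, with 0.31 in AGS and 1.45 in MKN45 cells. Its ESRRG OE means were 13.64 in AGS and 13.65 in MKN45 cells, where the brightest probe of each array stood at 13.95, and its control means 13.33 and 12.20. PAGE4 differed by -1.32 (-1.88 in AGS and -0.55 in MKN45 cells), and was undetected on all MKN45 ESRRG OE arrays, so that its fall there is a lower bound. FGD3, a guanine nucleotide exchange factor gene, differed by -1.17, with 0.96 in MKN45 cells. In AGS cells FGD3 was at -0.21, with overlapping groups, and did not pass the test.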

How the results depend on the processing

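Scaling all arrays to a common median gave 4997 changed genes against 5603, but 1464 lower genes against 2969, with 3533 higher. It also gave 40 genes over 2-fold lower against 113, and 381 genes that differed between the lines against 1351, with 138 more positive in AGS cells against 700. No gene was called in opposite directions by these scalings. Background correction (neqc) gave 674 genes over 2-fold higher against 319, 434 over 2-fold lower against 113, and 890 genes that differed between the lines. The remaining settings gave 4246 changed genes (an equal-variance test with each gene's own spread) to 5743. Leaving out 1 array gave 4805 to 5352 changed genes, 2269 to 2532 higher, 2536 to 2833 lower, 311 to 331 over 2-fold higher and 104 to 126 over 2-fold lower. Of 307 genes named by the stated rule 41 lost or gained a call in at least 1 setting and none turned direction while called. Genes named outside that rule, such as LYZ, are not in this count. With the stricter detection filter 305 of the 307 could be compared. Changes near the detection limit have little range, since signal there is close to background. The causes of these differences were not tested.

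With the replicate number as a block (replicate block) 5743 genes changed and 1450 differed between the lines. Samples of the same number did not deviate together from their group means, with correlations of -0.11, 0.26 and -0.02, so the numbers were not taken as pairs.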
